A study of Mus musculus with 16 samples.

Results

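The interferon response genes described here are 31 mouse genes that cells switch on when they sense interferon, chosen by symbol from a table of 27179 rows. They were selected with results of these same data in view, because their values move with the replicate number of the libraries, so that movement is described below without a test. All 31 had a row, and all 31 reached a normalized count of 10 in at least 4 of the 16 libraries, the limit for testing that 15024 genes passed. The libraries were made from RNA of Pdgfrb+ cells, the mural and progenitor cells that carry a receptor for platelet-derived growth factor, isolated by flow sorting. The mice were C57BL/6 at postnatal day 7, and the tissue was the epididymal white fat pad. The 4 populations were adipocyte precursor cells (APCs), fibro-inflammatory progenitors (FIPs), mesothelial-like cells (MLCs) and smooth muscle cells (SMCs), each with 4 libraries numbered 1 to 4, and the labels name no treatment, infection or mutant allele in any of them. Nothing in the labels says whether equal numbers share an animal, a litter or a sort, or how many mice were pooled. The p-values therefore rest on library-to-library spread, which may be technical.

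Interferons are secreted proteins that warn cells of viruses and other microbes. Type I interferons bind the Ifnar1/Ifnar2 receptor, whose kinases Jak1 and Tyk2 phosphorylate Stat2. With Irf9 it forms part of a complex called ISGF3, which binds the interferon-stimulated response element (ISRE) in promoters. Interferon gamma acts through Ifngr1 and Ifngr2 and leads to binding at the gamma-activated site (GAS). The induced genes code for effectors that block viral RNA, translation, budding or assembly, for sensors of foreign RNA, for factors such as Irf7 that amplify the response, and for enzymes such as Usp18 that end it. By role, the 31 genes comprise 20 effectors, 4 transcription factors, 2 sensors of double-stranded RNA, and 5 enzymes of ubiquitin, ISG15 or ADP-ribose transfer.

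Promoters show where the members do and do not share these elements. The stretches below are the 160 bases before an annotated start of transcription on GRCm38.p6, from RefSeq. They are written 5′ to 3′ on the strand of the gene, with matches in capitals. The start used is not always the outer end of the gene. For Ifit3, whose span begins at base 34583119, the stretch lies inside the gene, and the start used for Ifit2 also lies inside its span. The first 5 genes are effectors with ISRE matches, Irf1 shows a GAS match, and Trim25 shows a member with neither motif.
Isg15 (chr4:156200819-156200978, minus strand): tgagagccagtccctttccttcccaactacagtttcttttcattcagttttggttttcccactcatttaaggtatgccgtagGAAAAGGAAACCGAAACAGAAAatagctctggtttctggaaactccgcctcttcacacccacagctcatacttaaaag
Ifit1 (chr19:34640729-34640888, plus strand): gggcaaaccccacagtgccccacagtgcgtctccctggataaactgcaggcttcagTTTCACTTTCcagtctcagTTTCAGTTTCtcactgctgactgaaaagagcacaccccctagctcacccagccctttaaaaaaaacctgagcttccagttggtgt
Ifit3 (chr19:34583369-34583528, plus strand): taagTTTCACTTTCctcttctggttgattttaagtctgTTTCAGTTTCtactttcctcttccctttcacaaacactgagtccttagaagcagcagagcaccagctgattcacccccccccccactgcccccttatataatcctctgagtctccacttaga
Rsad2 (chr12:26456453-26456612, minus strand): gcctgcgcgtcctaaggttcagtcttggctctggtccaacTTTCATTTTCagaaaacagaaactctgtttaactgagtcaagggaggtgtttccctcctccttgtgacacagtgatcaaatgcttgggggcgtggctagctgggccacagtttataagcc
Gbp2 (chr3:142620503-142620662, plus strand): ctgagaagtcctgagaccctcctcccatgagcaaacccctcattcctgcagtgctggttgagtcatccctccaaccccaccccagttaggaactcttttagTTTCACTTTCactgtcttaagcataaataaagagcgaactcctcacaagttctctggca
Irf1 (chr11:53769854-53770013, plus strand): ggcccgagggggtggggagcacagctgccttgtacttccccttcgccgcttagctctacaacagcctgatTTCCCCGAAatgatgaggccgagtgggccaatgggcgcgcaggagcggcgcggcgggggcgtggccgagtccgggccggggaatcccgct
Trim25 (chr11:88999243-88999402, plus strand): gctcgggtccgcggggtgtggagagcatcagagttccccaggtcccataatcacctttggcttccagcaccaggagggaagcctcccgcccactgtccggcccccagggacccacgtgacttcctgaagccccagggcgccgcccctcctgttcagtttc
The ISRE was searched as GAAANNGAAA and the GAS as TTCNNNGAA, on both strands, in windows from 250 bases before to 50 bases after the start. In capitals, Isg15 carries 3 ISRE matches that overlap into a single run, Ifit1 and Ifit3 carry 2 each on the opposite strand, and Rsad2 and Gbp2 carry 1 each. Of the 31 members, 23 had a window, and 11 of these 23 (47.8%) held an ISRE match, against 3.99% of the 27025 genes with a window. A GAS match was found in 7 of the 23 (30.4%), against 9.55% of genes, and in 2 members, Bst2 and Ifitm3, a GAS match overlapped an ISRE match. Ifit1, Ifit3, Isg15, Oas1a, Oas3, Rsad2, Bst2, Ifitm3, Gbp2, Stat2 and Ifih1 held the ISRE match, and Ifit2, Oas1a, Bst2, Ifitm3, Ifi35, Psmb8 and Irf1 the GAS match. Mx1, Mx2, Oas2, Rtp4, Dhx58, Usp18, Parp9 and Parp14 had no entry in the promoter table. A match is a run of letters, not a measured binding site.

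The members lie on 14 chromosomes, and 12 of them have another member within 100 kb: Ifit1, Ifit2 and Ifit3 on chromosome 19, Oas2 with Oas3 and Oasl1 with Oasl2 on chromosome 5, Mx1 with Mx2 and Parp9 with Dtx3l and Parp14 on chromosome 16. In the RefSeq annotation 11 members overlap another gene. The overlap covers all 9121 bp of Ifit1, which lies inside Ifit1bl1, and 558 bp shared by Dtx3l and Parp9. How the authors assigned shared reads is not given in the sources used here, so the values of these genes are uncertain to that extent. Mx1 and Mx2 of this mouse genome are annotated as transcribed pseudogenes.

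Behind each library stood 9.205 to 27.53 M reads recovered from the deposited values, with a median of 21.57 M. SMCs replicate 3 and APCs replicate 4, at 11.22 M reads, were the shallowest. Summed markers were highest in the population of their label. The 8 mesothelial markers reached 128149 to 131369 in MLCs and at most 14979 elsewhere, and 8 adipocyte precursor markers 54145 to 83651 in APCs and at most 37487 elsewhere. The 6 FIP markers reached 34967 to 38776 in FIPs and at most 19443 elsewhere, and 8 smooth muscle markers 10954 to 16070 in SMCs and at most 10775 elsewhere. The 10775 was APCs replicate 4, which stood apart in contractile genes, with Acta2 at 2388 against 156 to 221 in the other APC libraries, Tagln at 1463 against 194 to 318 and Cnn1 at 116 against 6.04 to 9.3. SMCs replicate 4 held the lowest smooth muscle sum of the SMCs, and the part of these differences in the members' values was not tested. Without APCs replicate 4 the members called lower in APCs were 4 against FIPs, 22 against MLCs and 7 against SMCs, beside 2, 21 and 7 with it. Among the members, Mx1 rested on 0 to 56 reads per library and Oas3 on 0 to 196, with 0 reads in 2 and 4 libraries, and counting error is large for both.

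Within every population the library numbered 4 was the high one for most members, and this is the pattern on which the genes were chosen. Replicate 4 was the highest of the 4 libraries for 29 of 31 members in APCs (36.5% of all genes tested), 31 in FIPs (22.2%), 30 in MLCs (24.5%) and 26 in SMCs (22.3%). It was the highest in all 4 populations for 24 members, against 1.18% of all genes tested. With the population mean of each gene taken out on the log2(value + 1) scale, the median member deviated in replicate 4 by 0.981 in MLCs and 0.656 in FIPs, and by 0.496 in APCs and 0.455 in SMCs. Replicate 2 came second behind it for 24 members in APCs, 24 in FIPs and 27 in MLCs, but for 7 in SMCs. Replicates 1 and 3 were the low libraries in APCs, FIPs and MLCs, with median deviations from -0.472 to -0.304, whereas in SMCs replicates 1 to 3 lay together between -0.141 and -0.124. The plot of deviations by replicate number shows this order gene by gene.

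**Figure D1:**
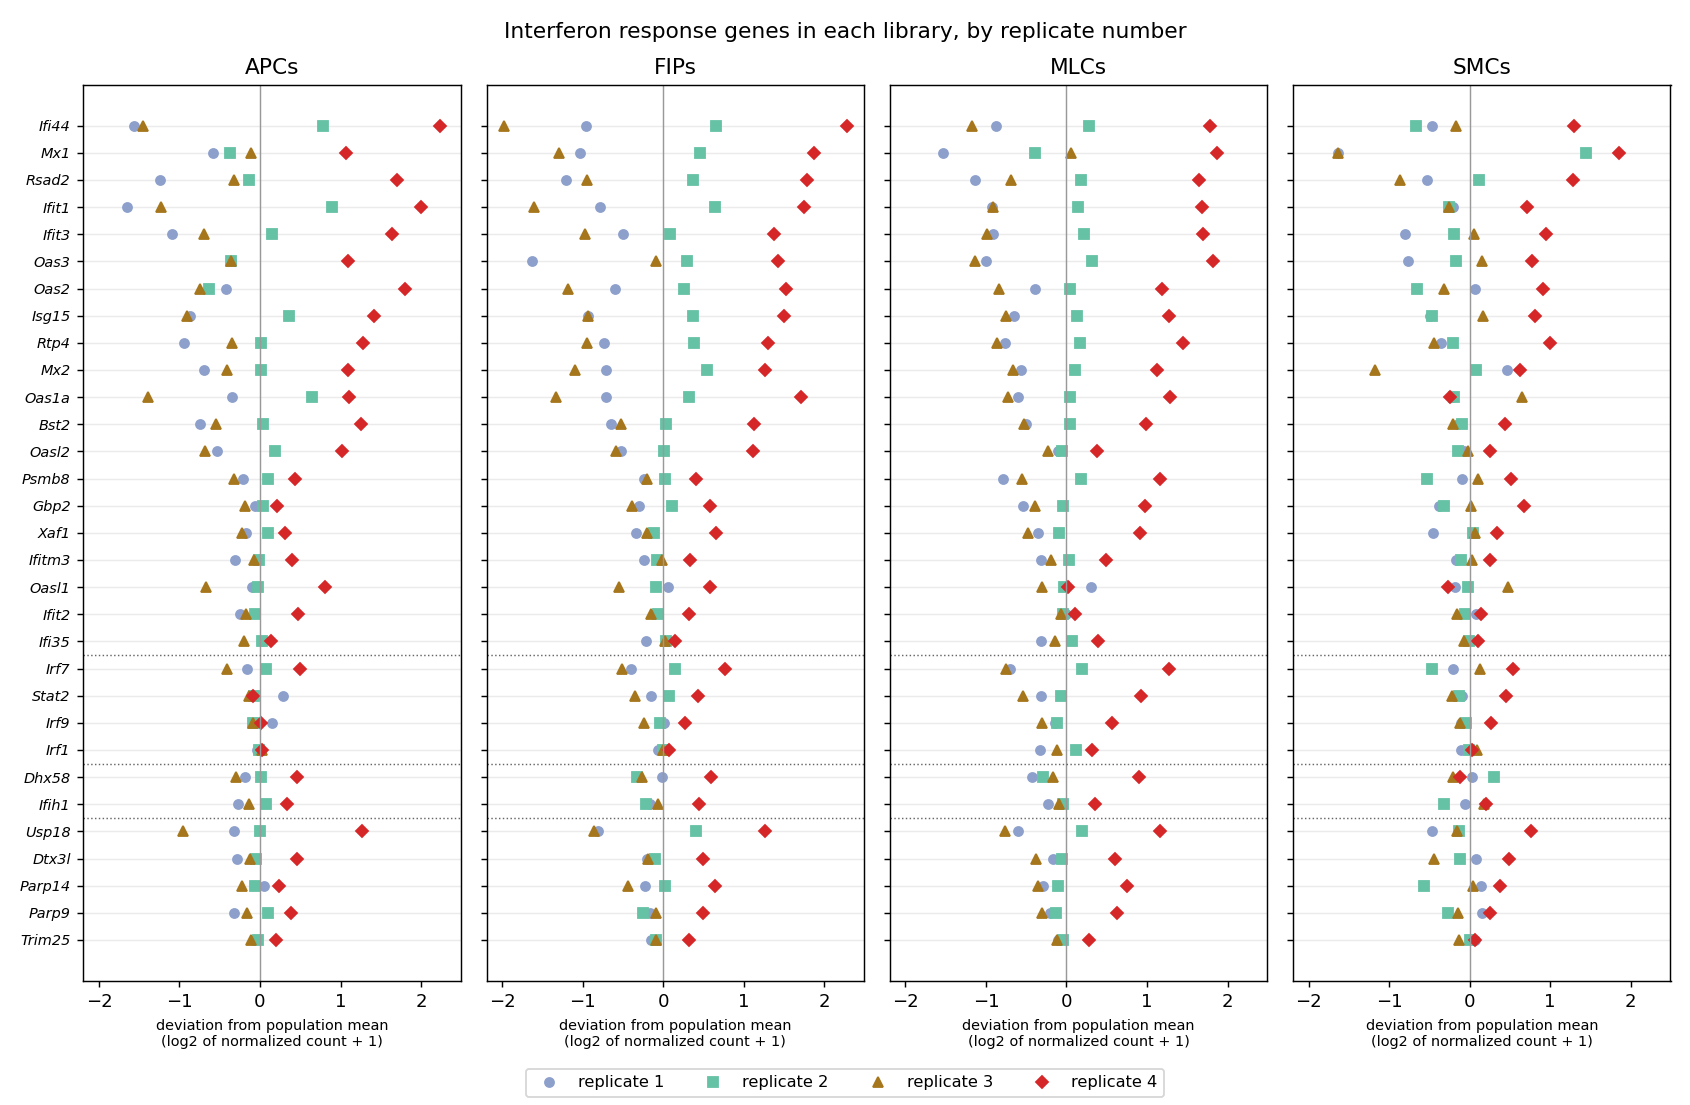
Deviation of each of the 31 genes (rows, by role from effectors at the top through transcription factors and sensors to enzymes, parted by dotted lines) from its population mean, log2(value + 1) scale, 1 panel per population and 1 point per library. Replicate 4 was highest in all 4 populations for 24 of the 31 genes. Replicate 2 came second behind replicate 4 for 24, 24, 27 and 7 genes in APCs, FIPs, MLCs and SMCs.

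The widest movements with the replicate number were among the effectors, though not in each of them. The range of the 4 replicate means, averaged over populations, ran from 0.324 log2 units for Ifi35 to 3.09 for Ifi44, beside 1.8 for Usp18, the widest of the other roles. For 18 of the 20, replicate 4 was the highest library in all 4 populations, as it was for 4 of the 5 enzymes. Ifi44, an interferon-inducible cytoplasmic protein, measured 2.54, 17.1, 2.86 and 48.4 in APCs and 2.97, 11.1, 0.955 and 36.3 in FIPs. MLCs read 87.1, 195, 70.8 and 555, and SMCs 13.7, 11.7, 17.1 and 49.05 for replicates 1 to 4. Ifit1, which binds viral RNA that lacks the host cap modification, measured 31.3, 187, 42.2 and 405 in APCs and 121, 325, 67.8 and 704 in FIPs. MLCs read 181, 381, 183 and 1104, and SMCs 78.97, 76.8, 76.9 and 151. In APCs, FIPs and MLCs both genes were highest in replicate 4 and next in replicate 2, while in SMCs the first 3 libraries of each lay close together. Rsad2, or viperin, an enzyme that makes a chain-terminating nucleotide, read 13.5, 30.2, 26.5 and 111 in APCs and 23.7, 73.04, 28.6 and 197 in FIPs. MLCs read 276, 687, 376 and 1916, and SMCs 37.9, 59.8, 29.9 and 136. Isg15, the ubiquitin-like protein that is joined to other proteins in this response, read 27.9, 66.5, 27.2 and 138 in APCs and 29.7, 74.9, 29.6 and 164 in FIPs. MLCs read 200.2, 342, 187 and 757, and SMCs 52.6, 53.4, 83.3 and 131. The ratio of replicate 4 to the mean of the other 3 was 4.73, 4.71, 4.3 and 3.2 for Rsad2 and 3.42, 3.67, 3.11 and 2.07 for Isg15, in the order APCs, FIPs, MLCs and SMCs, so it was smallest in SMCs for both. Mx1, a GTPase of the dynamin family, was low throughout: its values were 5.92, 7.05, 8.58 and 20.8 in APCs and 5.94, 18.5, 4.77 and 50.8 in FIPs. MLCs read 2.51, 6.77, 9.59 and 36.1, and SMCs 0, 7.47, 0 and 10.2, and replicate 4 was again the highest in each population. Mx1 reached 10 in only 5 libraries, those numbered 4 and FIPs replicate 2. It thus passed the limit for testing through the libraries where it was high, and its place among the 24 members above adds no support.

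The 2 effectors that broke the pattern were relatives in the oligoadenylate synthetase family, whose active members make the second messenger that turns on RNase L. Oas1a was highest in SMCs replicate 3, with 23.2, 23.5, 42.7 and 22.5 for SMCs replicates 1 to 4, but in replicate 4 of the other populations. Oasl1, a catalytically inactive relative, was highest in MLCs replicate 1 and SMCs replicate 3, with values of 464, 369.6, 305 and 382 in MLCs and 29.5, 33.1, 46.97 and 27.6 in SMCs. In MLCs its replicates 2 and 4 lay close together, with a ratio of replicate 4 to the mean of the others of 1.01. Oas2, which sits beside Oas3, read 11.8, 10.1, 9.29 and 58.8 in APCs and 37.6, 69.3, 24.8 and 168 in FIPs. MLCs read 244, 331, 179 and 731, and SMCs 92.7, 55.5, 70.5 and 167, and replicate 4 stood above the rest in each population.

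Transcription factors moved with the number less uniformly. Irf7, the factor that amplifies type I interferon production, read 192, 228, 162 and 304 in APCs and 275, 400.3, 254 and 620.3 in FIPs. MLCs read 342, 637, 333 and 1345, and SMCs 202, 169, 254 and 339, with replicate 4 highest in all 4 populations. Stat2, a subunit of ISGF3, read 1454, 1131, 1087 and 1121 in APCs and 1275, 1484, 1108 and 1905 in FIPs. MLCs read 1287, 1531, 1100.5 and 3062, and SMCs 1034, 1009, 954 and 1520.4. Replicate 4 was the high Stat2 library in FIPs, MLCs and SMCs, but in APCs replicate 1 was, and APCs replicate 4 lay among the other libraries. Irf9, the DNA-binding subunit of ISGF3, had the same exception. It read 892, 758, 755 and 809 in APCs and 912, 883, 767 and 1094 in FIPs. MLCs read 1044, 1060.5, 935 and 1709.6, and SMCs 793, 828, 781 and 1025. Irf1, a factor induced by interferon gamma and by inflammatory signals, had the narrowest range of replicate means of the 31, 0.241 log2 units, and was highest in replicate 3, not 4, in SMCs.

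Both sensors of double-stranded RNA and all 5 enzymes were highest in replicate 4 of at least 3 populations. Ifih1, or MDA5, which starts the signal that leads to interferon, read 316, 404, 349 and 482 in APCs and 579, 557, 616 and 881 in FIPs. MLCs read 973, 1102, 1069 and 1459, and SMCs 340.1, 284, 404 and 411. Dhx58, or LGP2, which modulates the related sensors, read 70.2, 80.6, 65.1 and 111 in APCs and 90.03, 72.1, 75.4 and 138 in FIPs. MLCs read 101, 112, 122 and 256, and SMCs 77.9, 94.99, 66.2 and 70.5. Replicate 4 led in all 4 populations for Ifih1 and in 3 for Dhx58, where SMCs replicate 2 was the highest. Usp18, which strips ISG15 from proteins and blocks the type I receptor, read 30.4, 38.3, 19.3 and 93.4 in APCs and 31.7, 74.9, 30.6 and 137 in FIPs. MLCs read 55.3, 96.4, 49.4 and 190.2, and SMCs 32.6, 41.6, 40.6 and 77.7, and replicate 4 was the highest in each. For Parp14, Parp9 and Dtx3l, an ADP-ribosyltransferase and a neighbouring pair that act as a complex, the ratio of replicate 4 to the mean of the others lay between 1.24 and 2.01. Trim25, the ubiquitin ligase that acts on the RNA sensor RIG-I, was nearly level in SMCs, at 899, 856, 779 and 896, and there replicate 1 was the highest.

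The 6 pairs of populations were compared in 1 limma fit on log2(value + 1) over all 15024 genes, with p-values adjusted by Benjamini-Hochberg. Called means here an adjusted p under 0.05 together with a 2-fold or larger difference. MLCs carried the highest levels: 12 of the 31 members (Isg15, Oas1a, Oas2, Oas3, Oasl1, Oasl2, Rsad2, Bst2, Ifi44, Gbp2, Psmb8 and Parp14) were called higher in MLCs than in each other population, against 10.6% of all genes tested. At least 1 pair gave a call for 23 members, against 42.5% of all genes. The other 8, Mx2, Ifitm3, Ifi35, Irf9, Stat2, Dhx58, Usp18 and Trim25, were called in none of the 6 pairs in this fit.

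Against APCs, 21 members were higher in MLCs and none lower, where 17.7% of all genes were called higher in MLCs and 11.8% lower, and the median member was -1.34 log2 in APCs relative to MLCs, beside -0.019 for all genes. Against FIPs, 12 members were higher in MLCs and 1, Irf1, was lower, where 18.6% and 12.5% of all genes were called. The median was -0.813 log2 in FIPs relative to MLCs, beside -0.0183 for all genes. Against SMCs, 19 members were higher in MLCs and none lower, where 14.4% and 13.5% of genes were called, with medians of 1.5 log2 for the members and 0.0367 for all genes. Without MLCs replicate 4, the library with the highest values, the counts of calls were 14 higher in MLCs and 1 (Irf1) lower against APCs, 10 and 1 against FIPs and 14 and 0 against SMCs. With every library numbered 4 left out they were 20 and 1, 13 and 1, and 20 and 0.

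**Figure D2:**
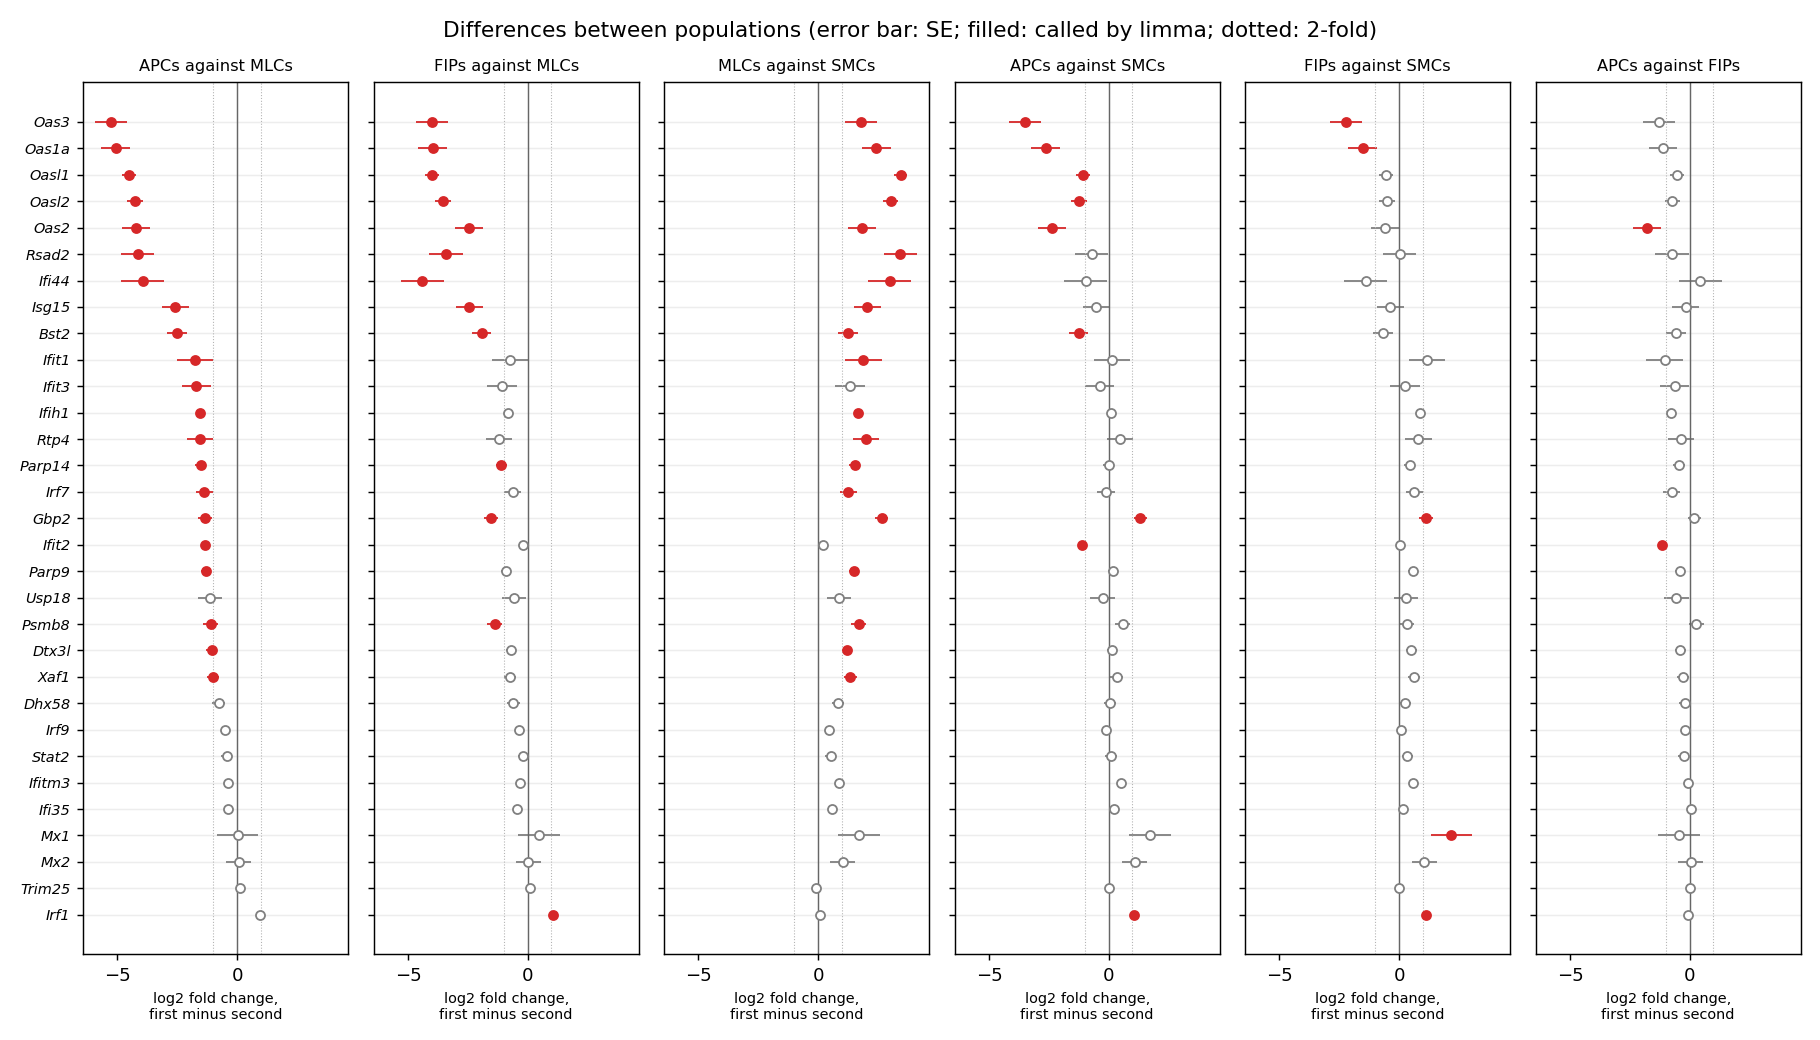
Log2 difference between populations for the 31 genes in the 6 pairs (first minus second population, log2(value + 1) scale, bars show SE, filled points are called, dotted lines mark 2-fold). In the panels that hold MLCs most effectors lie on the MLC side, with 21, 12 and 19 genes called higher in MLCs than in APCs, FIPs and SMCs.

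Oligoadenylate synthetases and their relatives stood far higher in MLCs than in APCs, and Oas2 and Oas3 stood apart less from SMCs, at 1.85 and 1.78 log2. Oasl2, of the same family, read 215, 354, 192 and 631 in APCs and 354, 510.3, 338 and 1097 in FIPs. MLCs read 5559, 5764, 5100.3 and 7751, and SMCs 693, 659.6, 717 and 869, so no library of another population came near the MLC values. It averaged 6044 ± 1172 (SD, n = 4) in MLCs and 348 ± 202 in APCs, a difference of 4.26 log2 (SE 0.331, limma adjusted p = 7.6e-10), and was 8.16-fold higher in MLCs than in SMCs (adjusted p = 1.41e-07). Oasl1 averaged 380.1 ± 65.5 in MLCs and 16.6 ± 7.81 in APCs (SD, n = 4), 4.52 log2 apart (SE 0.283, limma adjusted p = 2.66e-11), with no overlap between MLCs and any other population. Oas1a read 2.54, 6.04, 0.715 and 8.65 in APCs, 4.95, 11.1, 2.86 and 30.8 in FIPs and 98.9, 156, 90.7 and 366 in MLCs, and was 5.07 log2 higher in MLCs than in APCs (SE 0.602, limma adjusted p = 3.85e-07). Oas3 was at 0 reads in APCs replicates 1 to 3 and at 1.73 in replicate 4. It read 23.5, 60.04, 21.4 and 173 in MLCs and 7.37, 11.7, 14.9 and 23.5 in SMCs. Oas3 thus passed the filter on low values through MLCs and SMCs. Its place among the members called higher there than in APCs or FIPs adds no support. Its call between MLCs and SMCs (1.78 log2, limma adjusted p = 0.025) was lost without MLCs replicate 2 or 4 or SMCs replicate 1 or 2, at adjusted p of up to 0.131 and log2 values from 1.17 to 1.73.

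**Figure D3:**
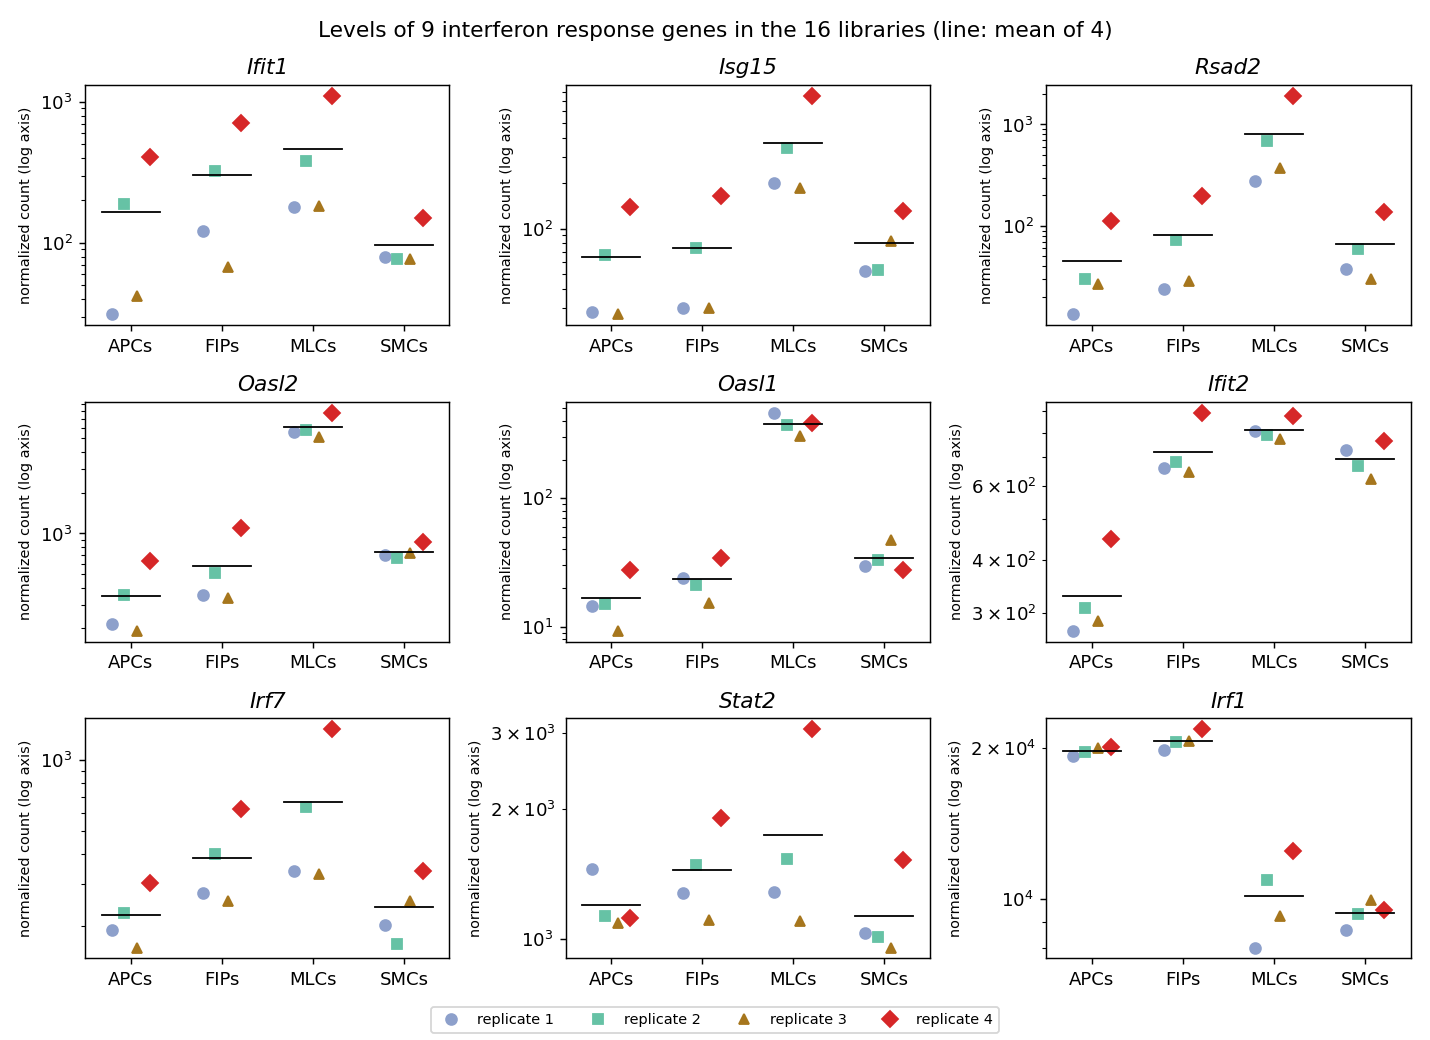
Normalized counts (log axis) of 9 of the genes in each of the 16 libraries, by population and replicate number, with the mean of 4 libraries as a line. MLCs lie highest for Oasl1, Oasl2, Isg15 and Rsad2, APCs lowest for Ifit2, and APCs and FIPs above MLCs and SMCs for Irf1.

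Isg15, Rsad2 and Ifi44 were also higher in MLCs than in every other population, with every MLC library above all libraries elsewhere. Isg15 differed from APCs by 2.58 log2 (SE 0.568, limma adjusted p = 0.000518), from FIPs by 2.43 (adjusted p = 0.000895) and from SMCs by 2.06 (adjusted p = 0.00363). Rsad2 averaged 814 ± 756 in MLCs and 65.9 ± 48.4 in SMCs (SD, n = 4), and was 17.7-fold, 10.6-fold and 10.8-fold higher in MLCs than in APCs, FIPs and SMCs. Ifi44 was 21.1-fold higher in MLCs than in FIPs and 7.99-fold higher than in SMCs (limma adjusted p = 0.000239 and 0.00645). The SD of these genes in MLCs was large beside their mean, and replicate 4 lay far above replicates 1 and 3.

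Bst2, or tetherin, holds budding virus at the cell surface, and Gbp2 is a guanylate-binding GTPase that coats intracellular microbes. Bst2 read 84.5, 147, 97.2 and 342 in APCs and 137, 220.03, 149 and 469.8 in FIPs. MLCs read 575, 841, 564 and 1621, and SMCs 309.6, 319, 297 and 464, and its MLC values did not overlap those of any other population. It was 5.68-fold higher in MLCs than in APCs and 2.38-fold higher than in SMCs (limma adjusted p = 2.54e-05 and 0.0125); without MLCs replicate 4 the second difference was 0.92 log2, under the 2-fold limit. Gbp2 read 2984, 3192, 2732 and 3595 in APCs and 2203, 2933, 2086 and 4051 in FIPs. MLCs read 5412, 7599, 5974 and 15504, and SMCs 957, 998, 1264 and 1987, with SMCs lowest and MLCs highest and APCs and FIPs overlapping each other. It was 6.31-fold higher in MLCs than in SMCs (SE 0.276 on 2.66 log2, limma adjusted p = 7.13e-08), and 2.5-fold higher in APCs than in SMCs (adjusted p = 0.00051). Psmb8, an immunoproteasome subunit, was 2.15-fold, 2.6-fold and 3.26-fold higher in MLCs than in APCs, FIPs and SMCs. Without MLCs replicate 4 it was -0.72 and -0.996 log2 in APCs and FIPs relative to MLCs, under the limit, and without APCs replicate 3 the first was -0.998.

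The 3 Ifit genes, neighbours on chromosome 19, did not share a population pattern. Ifit2 read 272, 308, 287 and 449.6 in APCs and 659.9, 683, 644 and 892 in FIPs. MLCs read 809, 789.8, 774 and 875, and SMCs 729, 667, 621 and 763: every APC library lay below every library of the other 3 populations, which overlapped one another except that MLCs lay above SMCs. APCs were 1.14 log2 below FIPs (SE 0.129, limma adjusted p = 6.54e-07), 1.33 below MLCs and 1.101 below SMCs. With equal totals the first was -0.897, under the 2-fold limit. Ifit3 was 3.25-fold higher in MLCs than in APCs (limma adjusted p = 0.0202), a call lost without APCs replicate 1 or 3 or MLCs replicate 4, at adjusted p of up to 0.0937. Ifit1 differed between APCs and MLCs by -1.76 log2 (adjusted p = 0.0466), but leaving out any of 10 of the 16 libraries ended that call, with adjusted p of up to 0.173. Of those 10, MLCs replicate 4 gave -1.203 log2 and APCs replicate 1 -1.21, and APCs replicate 3 -1.35. The other 7 left it between -1.76 and -1.71, with adjusted p from 0.0506 to 0.0831. Between MLCs and SMCs its 1.896 log2 (adjusted p = 0.0344) was lost without any of MLCs replicates 2 and 4 and SMCs replicates 1, 2 and 3, at adjusted p of up to 0.134.

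Other effectors differed less or were not called. Xaf1, a pro-apoptotic factor, and Rtp4, a chaperone of membrane receptors, were 2.55-fold and 4.05-fold higher in MLCs than in SMCs (limma adjusted p = 0.000147 and 0.00324). Their calls against APCs, at -1.01 and -1.55 log2 in APCs relative to MLCs, were lost without APCs replicate 1 (-0.95 and -1.24) or MLCs replicate 4 (-0.71 and -1.07), and that of Xaf1 also without APCs replicate 3 (-0.94). Ifitm3, which stops virus from fusing with endosomes, read 2695, 3295, 3162 and 4371 in APCs and 2951, 3298, 3421 and 4358 in FIPs. MLCs read 3457, 4398, 3768 and 6067, and SMCs 2067, 2153, 2369.9 and 2776, highest in replicate 4 of each population. Its differences stayed under 2-fold, the widest being 0.89 log2 between MLCs and SMCs (adjusted p = 7.69e-05). Mx2 averaged 74.5 ± 46.1, 79.2 ± 57.9, 71.7 ± 46.2 and 33.5 ± 15.1 (SD, n = 4) in APCs, FIPs, MLCs and SMCs, and Ifi35 348 ± 32.9, 333 ± 33.6, 453 ± 98.3 and 300.4 ± 15.2. Neither gene was called in any pair.

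Among the regulators, Irf1 ran the other way. It read 19266, 19592, 19984 and 20033 in APCs and 19771, 20531, 20618 and 21749.5 in FIPs. MLCs read 8000.3, 10906, 9237 and 12445, and SMCs 8678, 9333, 9928 and 9519, so APCs and FIPs lay above MLCs and SMCs without overlap. FIPs were 1.04 log2 above MLCs (SE 0.0942, limma adjusted p = 6.79e-09) and 1.14 above SMCs (adjusted p = 5e-09), and APCs were 1.08 above SMCs (adjusted p = 1.5e-08). These changes sat at the 2-fold limit, and APCs against MLCs, at 0.98 log2 (adjusted p = 1.95e-08), fell just short of a call. With libraries scaled to equal totals the 2 FIP differences were 0.71 and 0.92 and both missed it. Quantile normalization ended these calls too, at 0.71 and 0.82 log2, and that of APCs against SMCs, at 0.97. Without MLCs replicate 1, the lowest MLC library, the difference between FIPs and MLCs was 0.94. Irf7 was 2.58-fold higher in MLCs than in APCs and 2.39-fold higher than in SMCs (adjusted p = 0.00259 and 0.00508), and without MLCs replicate 4 both lay under the limit, at -0.95 and 0.84 log2. Stat2 and Irf9 were called in no pair: Stat2 averaged 1198 ± 171, 1443 ± 345, 1745 ± 895 and 1129 ± 263 (SD, n = 4) in APCs, FIPs, MLCs and SMCs.

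Ifih1 was 2.96-fold higher in MLCs than in APCs (SE 0.16 on 1.57 log2, limma adjusted p = 4.74e-08) and 3.19-fold higher than in SMCs (adjusted p = 2.23e-08), and the MLC libraries lay above all others. FIPs lay between, above every APC and SMC library and below every MLC library, at differences under the 2-fold limit (0.75 log2 above APCs, adjusted p = 0.000807). Parp9 and Parp14 were higher in MLCs than in APCs by 1.31 and 1.53 log2 and than in SMCs by 1.501 and 1.53 (limma adjusted p between 1.82e-06 and 1.53e-05). The call of Parp14 against FIPs was lost without FIPs replicate 3 or MLCs replicate 4, at -0.94 and -0.84 log2 in FIPs relative to MLCs. Dtx3l, which overlaps Parp9, was 1.07 log2 higher in MLCs than in APCs and 1.200 higher than in SMCs, and both fell under the limit without MLCs replicate 4, at -0.86 and 0.998. Without APCs replicate 1 the first was -0.97. Trim25 averaged between 813 and 874 in the 4 populations and was called in none of the pairs.

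APCs and FIPs gave the fewest calls of the 6 pairs, although their median member lay further apart than that of either against SMCs. Only Ifit2 and Oas2 were called, both lower in APCs, where 5.2% of all genes were called lower and 5.22% higher, and the median member was -0.391 log2 beside -0.0101 for all genes. Oas2 averaged 22.5 ± 24.2 in APCs and 74.9 ± 64.7 in FIPs (SD, n = 4), 1.77 log2 apart (SE 0.584, limma adjusted p = 0.0204), and APCs replicate 4 lay among the FIP libraries. That call was lost without APCs replicate 1, 2 or 3 or FIPs replicate 4, at log2 values from -1.63 to -1.26, whereas without APCs replicate 4 the pair had 4 calls, Oasl2 and Bst2 added. Of all genes called in this pair 50.1% were higher in APCs, and 67.5% with libraries scaled to equal totals.

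Between SMCs and the progenitors most members were not called. Against APCs, 7 members were higher in SMCs (Ifit2, Oasl1, Oasl2, Oas1a, Oas2, Oas3 and Bst2) and 2 lower (Irf1 and Gbp2), where 13.5% and 3.79% of all genes were called, and the median member was 0.0249 log2 in APCs relative to SMCs, beside -0.018 for all genes. Oas2 was 2.38 log2 higher in SMCs than in APCs (SE 0.584, limma adjusted p = 0.00204) and Oasl2 1.23 (adjusted p = 0.00391). The Oasl1 call was lost without APCs replicate 3 or SMCs replicate 3, at -0.85 and -0.91 log2 in APCs relative to SMCs, and the Bst2 call without APCs replicate 1 or 3, at -1.003 and -1.07. Against FIPs, Oas1a and Oas3 were higher in SMCs and Irf1, Mx1 and Gbp2 lower, where 13.3% and 4.6% of all genes were called, with medians of 0.301 log2 in FIPs relative to SMCs for the members and -0.00573 for all genes. Of these 5, Mx1 (2.18 log2, adjusted p = 0.0406) lost its call without any of FIPs replicates 2 and 4 and SMCs replicates 1 and 3, at 1.56 to 2.03 log2, and Oas1a (-1.52 log2, adjusted p = 0.0397) without any of FIPs replicates 1 and 3 and the 4 SMC libraries, at -1.61 to -1.08. Gbp2 was 1.13 log2 higher in FIPs (adjusted p = 0.00203) but 0.93 without FIPs replicate 4, 0.91 with equal totals and 0.99 with quantile normalization. The call of Oas3 between FIPs and SMCs was lost with quantile normalization (-1.296 log2, adjusted p = 0.139) and with edgeR (-1.799, adjusted p = 0.116). Mesothelial markers moved with these pairs: 7 of 8 were called higher in SMCs than in APCs and 7 than in FIPs, with medians of -6.29 and -4.7 log2 in APCs and FIPs relative to SMCs. They summed to 9423 to 14979 in SMCs, 3831 to 4314 in APCs and 2964 to 3504 in FIPs, and within SMCs the sum was highest in replicate 3, where Oas1a and Oasl1 were highest too, and lowest in replicate 4. Their part in the result was not tested. The share of called genes higher in the first population was 22% for APCs and 25.7% for FIPs against SMCs, and 44.5% and 45.6% with quantile normalization; for FIPs against MLCs it was 40.2%, and 28.6% with equal totals.

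None of the interferon genes looked up reached the limit for testing. These were 11 ligand genes, and interferon genes outside this list were not looked up. Ifna2, Ifnb1, Ifne and Ifnl3 were at 0 in all 16 libraries. The highest value of any of the 11 in any library was 7.37, of Ifnz. RNA of the receptors was present in every population: Ifnar1 read 2126, 2212, 2218 and 2199.5 in APCs and 2604, 2548, 2807 and 2704 in FIPs. MLCs read 2185, 2222, 2258 and 2118, and SMCs 2253, 2049, 2047 and 2056, with little spread by replicate number. Of 18 receptor and JAK-STAT genes, 3 were called higher and 3 lower in APCs than in MLCs (11.8% and 17.7% of all genes), 3 and 3 in FIPs than in MLCs (12.5% and 18.6%) and 3 and 2 in MLCs than in SMCs (14.4% and 13.5%). None was higher and 2 lower in APCs than in SMCs (3.79% and 13.5%), and 1 and 2 in FIPs than in SMCs (4.6% and 13.3%), so the shares called were near those of all genes. None was called in APCs against FIPs (12 at an unadjusted p under 0.05 in the same limma fit), and replicate 4 was the highest in all 4 populations for 2. The inhibitors Socs1 and Socs3 were highest in FIPs, next in APCs and lowest in MLCs, with no overlap between populations. FIPs lay 5.19-fold and 5.22-fold above MLCs (adjusted p = 1.35e-14 and 3.59e-15), and APCs 3.53-fold and 4.37-fold (adjusted p = 9.71e-13 and 2.24e-14). Irf5, a factor of the Toll-like receptor pathway, was 5.38 log2 higher in MLCs than in APCs (adjusted p = 1.65e-13).

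Further lists of the same response, chosen like the members with earlier results known, differed in how many genes were called. Over all genes 17.7%, 18.6% and 14.4% were called higher in MLCs than in APCs, FIPs and SMCs, 11.8%, 12.5% and 13.5% lower, and 1.18% were highest in replicate 4 of all 4 populations. Among 15 tested interferon-inducible GTPases, 8 were higher in MLCs than in APCs, 9 than in FIPs and 14 than in SMCs. Lower in MLCs were none, 1 (Gbp5) and none of them, and replicate 4 was the highest in all 4 populations for 12 of the 15. Of 18 genes of MHC class I presentation, 12, 11 and 13 were higher in MLCs than in APCs, FIPs and SMCs and none lower. Tapbp, or tapasin, which loads peptide onto class I molecules, read 2001, 2328, 2157 and 2561 in APCs and 2354, 2527, 2695 and 2973 in FIPs. MLCs read 8883, 9281, 8703 and 11116, and SMCs 2363, 2516, 2398 and 2688, and was 4.2-fold higher in MLCs than in APCs (limma adjusted p = 5.09e-14). Replicate 4 led in all 4 populations for 8 of those 18. Of 16 tested nucleic acid sensors and adaptors, 1, the adaptor Myd88, was higher and 2 lower in APCs than in MLCs. None was called between MLCs and SMCs, where 10 had an unadjusted p under 0.05 in the same limma fit. Replicate 4 led in all 4 populations for 5 of these 16.

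A wider list of type I targets had 60 tested genes. Against APCs 27 were higher and 6 lower in MLCs (17.7% and 11.8% of all genes), against FIPs 22 and 9 (18.6% and 12.5%), and against SMCs 27 and 4 (14.4% and 13.5%). Replicate 4 led in all 4 populations for 25 (1.18% of all genes). Apol9b, an apolipoprotein L gene, was near 0 in APCs and read 266, 315, 237 and 547 in MLCs. In contrast Slfn5, a Schlafen family member, read 13962, 10907, 13755 and 13069 in APCs and 17429.9, 16015, 16351 and 20116 in FIPs. MLCs read 328, 374, 385 and 616, and SMCs 2219.5, 1367, 3010.4 and 1924, and Ifi207, of the family of interferon-inducible DNA-binding proteins, read 2334, 2304, 3193 and 2953 in APCs and 1744, 1941, 2075 and 2555 in FIPs. MLCs read 57.8, 74.4, 89.98 and 94.2, and SMCs 208, 116, 378 and 239. Both were lowest in MLCs, with Slfn5 5.39 log2 (SE 0.19) and Ifi207 4.71 (SE 0.243) higher in FIPs (limma adjusted p = 3.1e-15 and 1.19e-12). The plot of list medians by library sets these groups beside markers of other cell types.

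**Figure D4:**
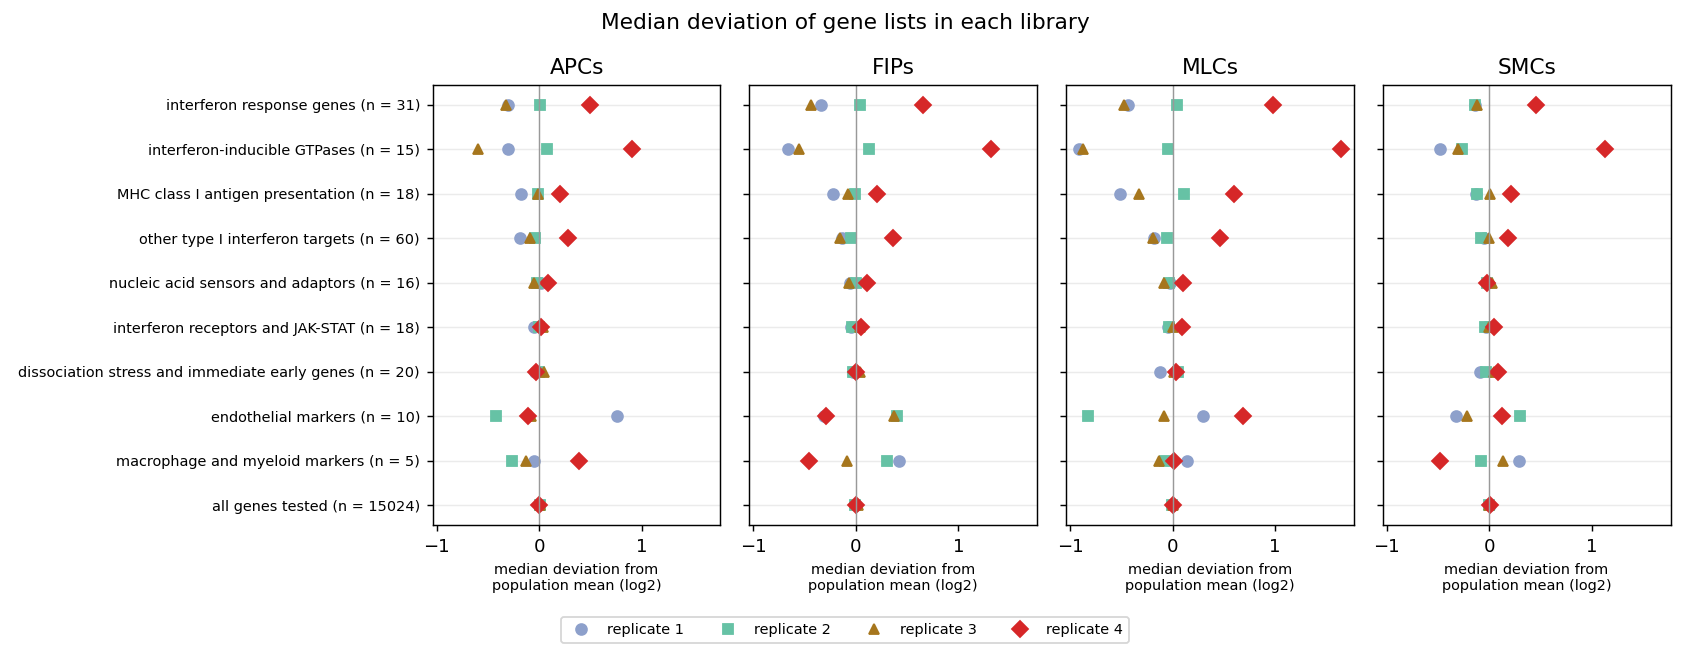
Median deviation (log2(value + 1) scale) of the genes of each list from their population mean, by library, in the 4 populations. The interferon response genes and the interferon-inducible GTPases lie highest in replicate 4 of each population, at 0.496, 0.656, 0.981 and 0.455 for the former (panels left to right).

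The genes outside the list that moved most like it were found by Pearson correlation over the 16 libraries, with population means taken out, to the mean deviation of the 31 members. Among 14993 genes searched, 62 exceeded 0.8, and the first 10 were Gm4951 (0.979), Ifi47 (0.979), Ifit3b (0.977), Iigp1 (0.975), Gbp6 (0.973), Eif2ak2 (0.962), Olfr56 (0.959), F830016B08Rik (0.958), Igtp (0.957) and Psmb9 (0.957). The libraries share populations, numbers and depth, so these values are descriptions. Iigp1, an immunity-related GTPase, read 509.6, 1606, 602 and 2815 in APCs and 430.4, 1368, 411 and 3033 in FIPs. MLCs read 859.6, 1919.6, 689 and 9255, and SMCs 276, 345, 312 and 1376, with replicate 4 far above the rest in each population. Ifi47, of the same GTPase family, read 26.2, 68.5, 30.7 and 202 in APCs and 19.8, 78.6, 26.7 and 219 in FIPs. MLCs read 129, 342, 189.6 and 1136, and SMCs 26.3, 27.7, 32.03 and 127. Eif2ak2, the kinase PKR that stops translation on sensing double-stranded RNA, had a narrower range, 681, 749, 711 and 1025 in APCs and 1940.4, 2081, 1875 and 2623 in MLCs, and was 2.7-fold higher in MLCs than in APCs (limma adjusted p = 1.58e-08).

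Of the markers of other cells and of stress, none was highest in replicate 4 of every population, against 1.18% of all genes tested. This held for each of 5 tested myeloid, 4 lymphocyte and plasmacytoid dendritic cell, 10 endothelial, 3 erythroid and 20 stress and immediate early genes tested, and for the markers of the 4 populations. At a share of 1.18%, lists this short can hold none, so the count does not set them apart from other genes. In single populations the markers were less even. Replicate 4 was highest for 8 of 8 mesothelial markers in FIPs and 5 in APCs, and for 6 of 8 adipocyte precursor markers in FIPs. It was highest for 22.2% of all genes in FIPs and 36.5% in APCs. Among 10 endothelial markers it was highest for 7 in MLCs (24.5% of all genes) and for 2, 0 and 3 in APCs, FIPs and SMCs. The median deviation of the endothelial markers in MLCs replicate 4 was 0.688 log2. The part of all these markers in the members' values was not tested. Summed stress genes lay between 846678 and 912524 in APCs, with replicate 4 lowest, 834602 and 893691 in FIPs, 638067 and 702789 in MLCs, and 684096 and 738646 in SMCs, with replicate 4 highest. Of 13 myeloid markers 5 passed the limit. All 13 summed to 2485 to 3017 in MLCs, 586 to 1314 in APCs, 531 to 859 in FIPs and 878 to 1107 in SMCs. In these sums replicate 4 was the highest in MLCs and the lowest in APCs and SMCs. By the median deviation of the 5 that passed, replicate 4 was the highest in APCs, at 0.385 log2. It was the lowest in FIPs and SMCs, at -0.461 and -0.484, and in MLCs, at 0.0106, it lay below replicate 1 at 0.136. Csf1r, the receptor of a macrophage growth factor, made most of the MLC sum, at 2108, 2271, 2014 and 2449, and with Mrc1 (97.7 to 120 in MLCs and 24.2 to 50.1 in APCs) was called higher in MLCs than in APCs. Fcer1g was called lower in MLCs, at 5.07 to 8.38 against 11.4 to 19.4 in APCs, and Cd68 read 312 to 478 against 420 to 1196. The median of the 5 that passed was 0.293 log2 in APCs relative to MLCs. The part of these cells in the result was not tested. The pan-leukocyte gene Ptprc and the macrophage gene Adgre1 were at most 11.4 and 13.9 in any library and Ly6g was at 0 in all 16. The replicate 4 values of the depth were 11.22, 25.44, 20.83 and 19.59 M reads in APCs, FIPs, MLCs and SMCs. These libraries were neither all deep nor all shallow, and the part of depth in the members' values was not tested. In sorted bulk samples, more cells with the response and more RNA of it per cell cannot be told apart.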

How the data were processed

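Libraries came from 250 ng of total RNA of sorted cells (NEBNext Ultra II), per the labels' protocols. GRCm38, mm10, HISAT2 2.0.1, featureCounts 1.4.6, DESeq2 1.6.3 and Trim Galore 0.4.1 appear in the submitters' processing notes, without role or order. Strand setting and handling of shared reads: not given in the sources used here. The authors deposited 1 normalized signal per gene and library. In each library 100% of the values were whole multiples of 1 step (within 0.01), which gave the reads behind them. Columns headed SMLCs were taken as the SMCs, the only titles left. Rows with no symbol, 1275, held 0.0812% to 0.135% of values.

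Genes at 10 or more in at least 4 of 16 libraries were fitted with limma 3.58.1 in R 4.3.3 on log2(value + 1), 4 populations as groups, no block, two-sided, with Benjamini-Hochberg adjustment over 15024 genes per pair. Calls needed an adjusted p under 0.05 and a log2 change of at least 1; the added 1 understates changes of low genes. The fit was tested on simulated data. Alternatives were pseudocounts of 0.1 and 8, no filter, a limit of 50, equal totals, quantile normalization, a replicate block, 2-population fits, each library left out, and edgeR 4.0.16 on the whole reads of 14 libraries (2 had steps too near 1 to tell reads from values); leaving out the libraries numbered 4 or the 2 shallowest was chosen after seeing the data. Pairs of libraries differed by more than counting noise, so none was counted as a copy.

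The members and gene lists were chosen with earlier results of these data known. The rule for genes named with values took the 4 members of each role with the widest range of replicate means, the 3 largest called rises and falls of each pair, Irf7, Irf9 and Stat2, up to 4 genes of each further list by adjusted p, and the 10 genes most like the members; Isg15, Bst2, Psmb8, Ifit3, Trim25, Xaf1, Rtp4, Ifitm3, Ifi35, Mx2 and, outside the members, Ifnar1, Gbp5, Apol9b, Csf1r, Mrc1, Fcer1g, Cd68, Acta2, Tagln, Cnn1, Ptprc, Adgre1 and Ly6g were chosen for naming after their values were known. Some genes under the rule are left unnamed, and 1 gene is not reported here. Promoters and gene spans came from RefSeq (GRCm38.p6), matched by Entrez number for all 31 members.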

Additional observations from a re-analysis of the deposited data

Results flagged for a closer look

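Each member was checked in each population for a library far from the other 3, by the gap to the nearest neighbour as a share of the whole range, listed here where it passed Dixon's critical value. The members were chosen because they move with the replicate number, so the list describes that choice: it is no test, adds no support, and the rate of about 5% of groups that chance gives in unselected genes does not apply. Of 124 groups of 4 libraries 16 are listed, 14 of them for replicate 4. In APCs these were Oas2 at 58.8 in replicate 4 (others 9.29 to 11.8), Oas3 at 1.73, which is 1 read, in replicate 4 (others 0), and Stat2 at 1450 in replicate 1 (others 1090 to 1130). In FIPs they were Ifit2 at 892, Trim25 at 1070 and Dtx3l at 607, all in replicate 4. In MLCs replicate 4 held Irf9 at 1710, Dhx58 at 256, Parp9 at 1730 and Parp14 at 2980. In SMCs replicate 4 held Ifit1 at 151 (others 76.8 to 79), Bst2 at 464, Ifi44 at 49, Rtp4 at 112 and Stat2 at 1520, and replicate 3, the shallowest library, held Oas1a at 42.7 (others 22.5 to 23.5).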

How the results depend on the processing

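No called value of a member changed sign under any alternative run. Of the 69 calls, 58 to 66 held under each other pseudocount, filter, scaling, 2-population fit or edgeR (63 of 63 under the limit of 50, where 6 calls had no value), 69 with the replicate block, 66 of 68 without the libraries numbered 4 and 67 without the 2 shallowest; 1046 of 1104 held when single libraries were left out. Members called between APCs and FIPs, 2 in the main fit, came to 1 with equal totals, the 2-population fit and edgeR, 4 without the 2 shallowest libraries, and 1 to 4 with single libraries left out. Between FIPs and SMCs, 5 in the main fit, they came to 3 with a pseudocount of 8, no filter and the limit of 50. With quantile normalization, with edgeR and without the 2 shallowest libraries they were also 3. They were 2 with equal totals and 3 to 5 with single libraries left out. Of the 5 calls of the main fit, quantile normalization kept 1 and gained Rtp4 and Mx2, and edgeR kept 2 and gained Mx2. Equal totals moved the median of all genes by more than 0.1 log2 in 4 pairs, to 0.232 for APCs against FIPs, -0.35 and -0.225 for FIPs against MLCs and SMCs and 0.151 for MLCs against SMCs; quantile normalization gave 0.11 and 0.103 for APCs and FIPs against MLCs. With equal totals 18 members were higher in MLCs than in FIPs. The cause was not tested. Replicate numbers do not pair the samples by the labels. Deviations of same-numbered libraries over all genes correlated between -0.0338 and 0.171, above 0.1 in 6 of 24 pairs. Over all genes 8 of 16 libraries were closest to their own number, and the count expected without pairing was not worked out. Over the members alone the correlations ran from -0.576 to 0.916, and from 0.602 to 0.916 between libraries numbered 4. The members were chosen for this movement, so these values describe that choice. With the replicate block the members called were 4 for APCs against FIPs, 22 for APCs against MLCs and 11 for APCs against SMCs. They were 15 for FIPs against MLCs, 8 for FIPs against SMCs and 22 for MLCs against SMCs. Among genes with no call without it, the block added Mx2 in the 3 pairs with SMCs and Usp18 in APCs against MLCs. Depth limits Mx1, Oas3, Oas1a and Ifi44, which were under a normalized count of 10 in 4 or more libraries.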
